A study of Acorus calamus with 8 samples.

Results

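Dehydrins and other late embryogenesis abundant (LEA) proteins were followed through 6 assembled features, of 24636 features that the deposited tables name in any library of sweet flag (Acorus calamus). The 6 came from a list of identifiers: the dehydrins Rab18 (CL1434.Contig2_All, 1012 bases), COR410-like (Unigene4074_All, 1273 bases) and ERD14-like (Unigene1416_All, 1134 bases), and 3 contigs of the read cluster CL837, called Contig1 (CL837.Contig1_All, 292 bases), Contig4 (CL837.Contig4_All, 782 bases) and Contig5 (CL837.Contig5_All, 306 bases) here. They were chosen by values measured in these libraries, taken here to be the higher counts at a month, so those values are given as a description with no test. Whether the response to cutting at a month also had a part in the choice is not recorded.

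Dehydrins are LEA proteins: very hydrophilic, largely unfolded in solution, and marked by a lysine-rich segment that can bind membranes and other proteins. LEA proteins accumulate as seeds dry, and in leaves, roots and storage organs under drought, cold, salt or abscisic acid, where they are thought to protect membranes and enzymes from loss of water. Rab18 takes its name from responsiveness to abscisic acid, COR410 is known as a cold-regulated acidic dehydrin of wheat, and ERD14 as an early dehydration-responsive acidic dehydrin of Arabidopsis.

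Each library holds RNA from leaf or rhizome (the horizontal underground stem) of explants grown in culture on MS medium with the auxins 2,4-D at 2 mg/l and NAA at 0.5 mg/l, which all groups share. In cut explants the leaves had been shortened, and in uncut explants they had not. Tissue was taken 4 days or a month after the cutting, a reckoning that the labels also apply to uncut explants. Each of the 8 combinations of tissue, cutting and time has 1 library, so no value has a replicate. The variety, the number of explants per library and the age of the explants are not given in the sources used here.

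The annotation bears out the label for 5 of the 6 features. The descriptions of Rab18, COR410-like and ERD14-like name dehydrins in the Nr database, although SwissProt calls the last a phosphoprotein, ECPP44. Contig1 is LEA1-like, and Contig4 is a hypothetical protein in Nr but LEA2 in SwissProt. Contig5 has no protein description, and its single match is to a stretch of a green alga's genome, so it is called Contig5 here. Contig2 of the same cluster, described as LEA2-like, is not among the 6, nor is Contig3, described as an algal cell wall glycoprotein. Contigs of a cluster are similar assembled stretches, among which reads that match several can be shared out. Expected counts were fractional in some libraries for Contig2 and Contig3, but whole numbers throughout for Contig1, Contig4 and Contig5. Whether those 3 stand for separate genes was not tested, so they are not taken as independent.

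Total counts ran from 6876377 to 12541185 per library, but ribosomal RNA features took 74.9% to 97.8% of them. Features of nuclear genes held 68195 counts in uncut rhizome at 4 days, the shallowest library by this measure, and 268336 to 1469696 in the other 7. Levels summed over lists are given as CPM of nuclear counts, and a floor of 3 counts stood for 44.0 such CPM in that library and for at most 11.2 in the others. The deposited FPKM, a level scaled to feature length and depth, is relative to all counts, ribosomal ones included, so it moves with the ribosomal share. Ratios between libraries are therefore given after TMM scaling, which sets the bulk of features equal. Fewer cells of a type and less RNA per cell cannot be told apart in these libraries.

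Nearly all counts of the 6 features lay in the month libraries, in both tissues and with or without cutting. Rab18 had 23, 8, 1 and 2 counts at 4 days in uncut leaf, cut leaf, uncut rhizome and cut rhizome. At a month, in the same order, it had 1705, 6467, 84 and 605. The month values all lay above the 4-day values, and cut leaf at a month alone held most of them. Summed over libraries and scaled, the month level was 236 times the 4-day level (95% interval 169 to 341, counting error only), or 70.4 times without the cut leaf pair and 870 times without the uncut leaf pair.

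ERD14-like was present in both tissues at similar scaled levels at a month, with rhizome at 1.26 times leaf in uncut explants (1.12 to 1.42) and at 0.850 times in cut explants (0.764 to 0.946). Its counts at 4 days were 5, 17, 4 and 22, in the order above, and its counts at a month were 1088, 1028, 378 and 521. The scaled ratio of the month to 4 days was 56.9 (42.8 to 77.3). It stayed between 49.0 and 67.8 without any 1 of the 4 pairs.

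COR410-like was close to absent at 4 days, with 2, 0, 0 and 4 counts. At a month it had 241, 351, 224 and 148, all above the 4-day counts. The ratio was 146 (66.6 to 397) and rests on 6 counts at 4 days. It was 78.1 without the cut leaf pair, 242 without the uncut leaf pair and 288 without the cut rhizome pair.

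Contig4, the LEA2 feature, had 20, 9, 1 and 1 counts at 4 days and 3040, 2718, 52 and 87 at a month. Both leaf libraries of the month stood far above both rhizome libraries. The ratio of the month to 4 days was 172 (121 to 254). It was 110 without the cut leaf pair and 347 without the uncut leaf pair.

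Contig1 and Contig5 had no count in any 4-day library. Contig1 had 1 count in uncut leaf, 49 in cut leaf, 0 in uncut rhizome and 12 in cut rhizome at a month. Contig5 had 41, 409, 3 and 58 in the same order. Against a floor of 3 counts over the 4-day group, the month level was at least 18.7-fold higher for Contig1 and at least 154-fold higher for Contig5. Without the cut leaf pair these bounds were 3.31 and 26.0.

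Across all 11682 features tested, 7.81% passed as higher at a month and 0.95% as lower by edgeR's quasi-likelihood test with Benjamini-Hochberg adjustment at 0.05. All 6 features reached the count filter, in part through the month libraries that chose them, and nothing is read from their count. The fitted log2 differences ran from 6.03 (ERD14-like) to 10.59 (Contig5). Those of Contig1 and Contig5 depend on how empty groups are filled.

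**Figure D1:**
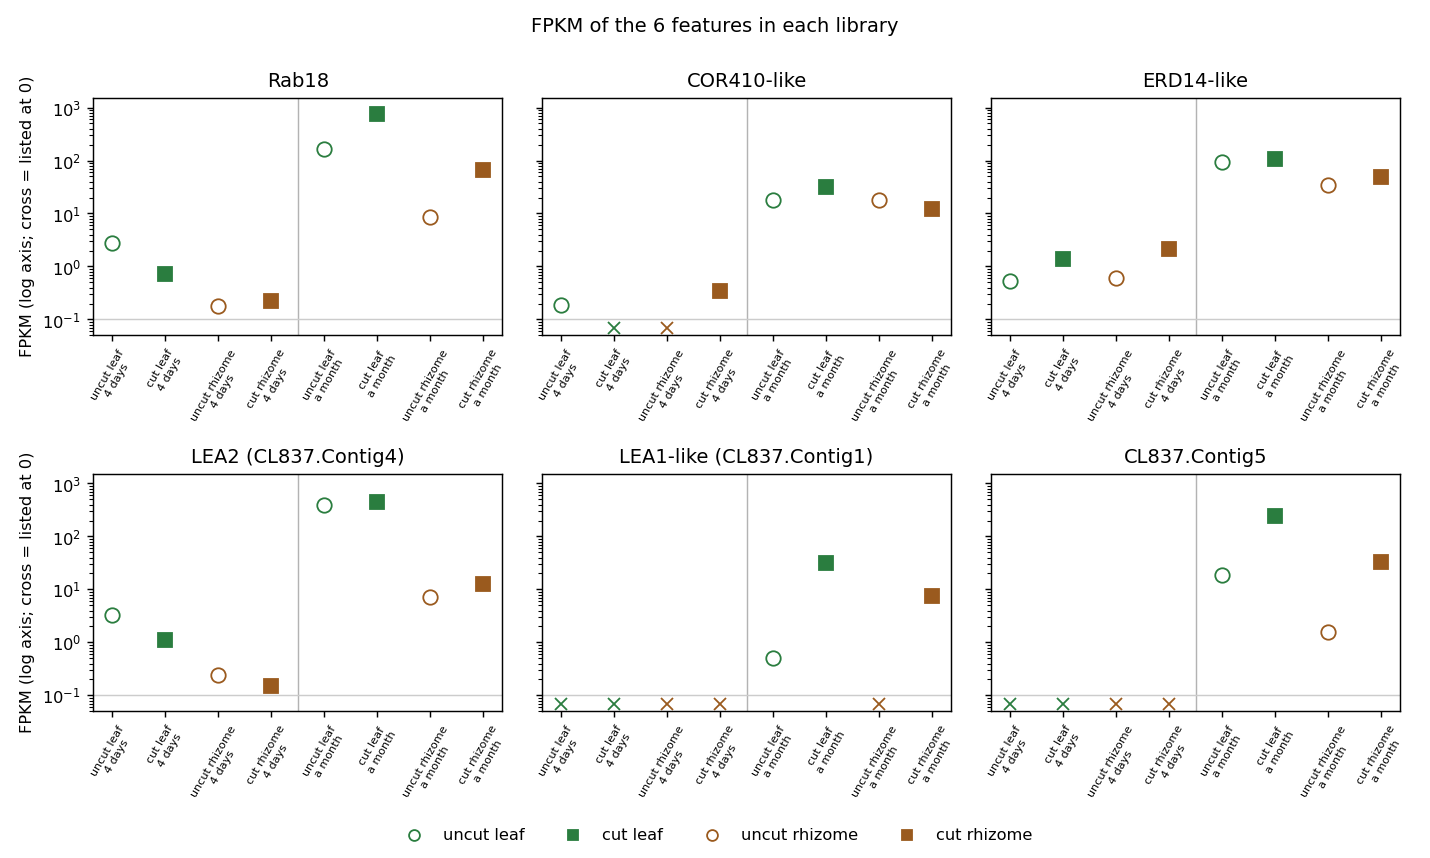
FPKM of the 6 features (log axis) in the 8 libraries. Green stands for leaf, brown for rhizome, open circles for uncut and filled squares for cut explants, and a cross for a feature listed at 0. Month values lie above 4-day values in every panel apart from Contig1, which is listed at 0 in uncut rhizome at a month, and the cut squares of Rab18, Contig1 and Contig5 at a month lie above the open circles of the same tissue.

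Levels per length at a month differed widely among the 6 features. Rab18 had 770 FPKM in cut leaf, rank 1 of 15572 nuclear features above 0 there, and 166 FPKM in uncut leaf, rank 52. In rhizome it was at 65.1 FPKM in cut explants (rank 18) and 8.64 in uncut explants (rank 527). Contig4 had 400 and 440 FPKM in uncut and cut leaf, ranks 13 and 7, and 7.26 and 12.8 in rhizome.

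ERD14-like ranked 121, 41, 59 and 24 in uncut leaf, cut leaf, uncut rhizome and cut rhizome at a month, at 93.2, 107, 34.1 and 49.1 FPKM. At 4 days its highest rank was 4253 and its levels were 0.54 to 2.15 FPKM. COR410-like lay lower, at 12.2 to 32.2 FPKM in the month libraries, with ranks 1161, 212, 164 and 238 in the same order. Contig5 ranked 1109 and 5031 in uncut leaf and uncut rhizome, and 13 and 49 in the cut libraries. Contig1 was near or at the bottom in the uncut libraries, at 0.50 FPKM in leaf (rank 16654 of 18414) and listed at 0 in rhizome, and ranked 217 in cut leaf and 518 in cut rhizome.

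The make-up of the group differed between the month libraries. In uncut leaf Contig4 held 57.4% of the summed FPKM of the 6 features and Rab18 23.8%. In cut leaf Rab18 led with 47.4%, and Contig5 held 15.0%. In uncut rhizome ERD14-like led with 49.2%, ahead of COR410-like with 25.6%, and in cut rhizome Rab18 led with 36.2%, ahead of ERD14-like with 27.3%. The sums themselves were 697, 1624, 69.3 and 180 FPKM, in the order uncut leaf, cut leaf, uncut rhizome and cut rhizome, and 1.03 to 6.87 at 4 days. These shares compare features within a library and need no scaling between libraries.

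**Figure D2:**
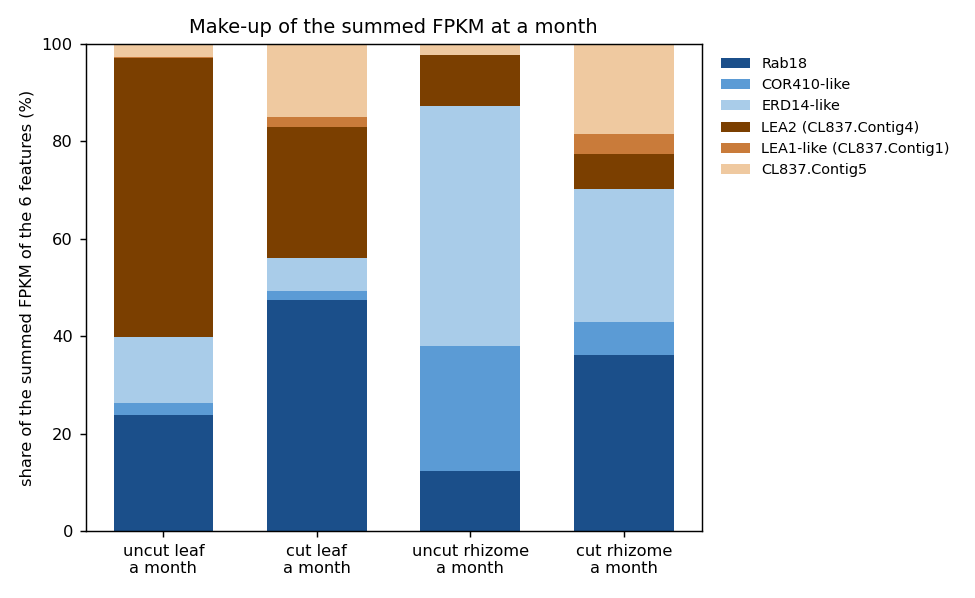
Share of the summed FPKM of the 6 features (percent, from 0) held by each feature in the 4 month libraries. The share of Rab18 is 23.8% in uncut and 47.4% in cut leaf, and 12.5% in uncut and 36.2% in cut rhizome, while ERD14-like and COR410-like take up most of the bar of uncut rhizome.

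Rhizome was next set against leaf over 4 matched pairs, each sharing cutting and time. Rab18 and Contig4 were lower in rhizome, and the other dehydrins were not shown to differ. Rab18 fell by 2.37 ± 0.47 on the log2 scale (SE, edgeR adjusted p = 0.00520) and Contig4 fell by 3.76 ± 0.57 (adjusted p = 0.000757). So 2 of the 6 passed, both lower in rhizome, where 9% of all features passed and 6.93% passed as lower.

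COR410-like stood at 0.86 ± 0.66 (adjusted p = 0.476) and ERD14-like at 0.50 ± 0.48 (0.575) in the edgeR fit. Both signs were negative on the log2 FPKM scale, at -0.30 and -0.51 with 1 added, where the median of all features tested moved from -0.14 to -0.73. Contig5 stood at -1.97 ± 0.65 (adjusted p = 0.0795), and Contig1 at -1.27 ± 1.10 (0.536).

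The tissue difference was plainest at a month, where the counts are. Rab18 was 5.61 times as high in leaf as in rhizome of uncut explants (4.50 to 7.07) and 6.37 times as high in cut explants (5.86 to 6.94). For Contig4 the leaf level was 16.1 times (12.3 to 21.7) and 18.6 times (15.0 to 23.3) the rhizome level. COR410-like went opposite ways in the pairs: in uncut explants rhizome was 3.37 times leaf (2.79 to 4.05), and in cut explants 0.708 times (0.580 to 0.860). These intervals cover counting error only, and each ratio sets 1 library against 1. Rhizome was lower by 4-fold or more, with 50 counts or more in the higher library, for 2 of the 4 members with enough counts in uncut explants (18.1% of the 5618 features with enough counts) and for 3 of 5 in cut explants (17.3% of 2392). With nuclear counts as scaling, Contig5 dropped out in cut explants, leaving 2 of 5.

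In the 4 month libraries alone, 3 of the 6 passed by edgeR, all lower in rhizome: Rab18 fell by 2.50 ± 0.32 (adjusted p = 0.000103), Contig4 fell by 4.04 ± 0.36 (8.18e-06) and Contig5 fell by 1.92 ± 0.47 (0.00959). The background there was 19.3% of features passing, 11.5% as lower. That fit has 1 residual degree of freedom and leans on the spread of all features. Over all 4 pairs the Rab18 call ended without either month pair (adjusted p = 0.0757 without the cut pair and 0.0537 without the uncut pair) and without the block for pairs (0.0712), while the direction held.

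Photosynthesis markers moved with the tissue as well. The 64 listed features, such as the small subunit of Rubisco, summed to 24689 to 97357 CPM of nuclear counts in leaf and to 1447 to 5338 in rhizome, and 45 of 57 tested passed as lower in rhizome. In leaf the sums were 24689 and 28947 at a month and 97357 and 65793 at 4 days, in uncut and cut explants. Their part in the values of Rab18 and Contig4 was not tested.

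**Figure D3:**
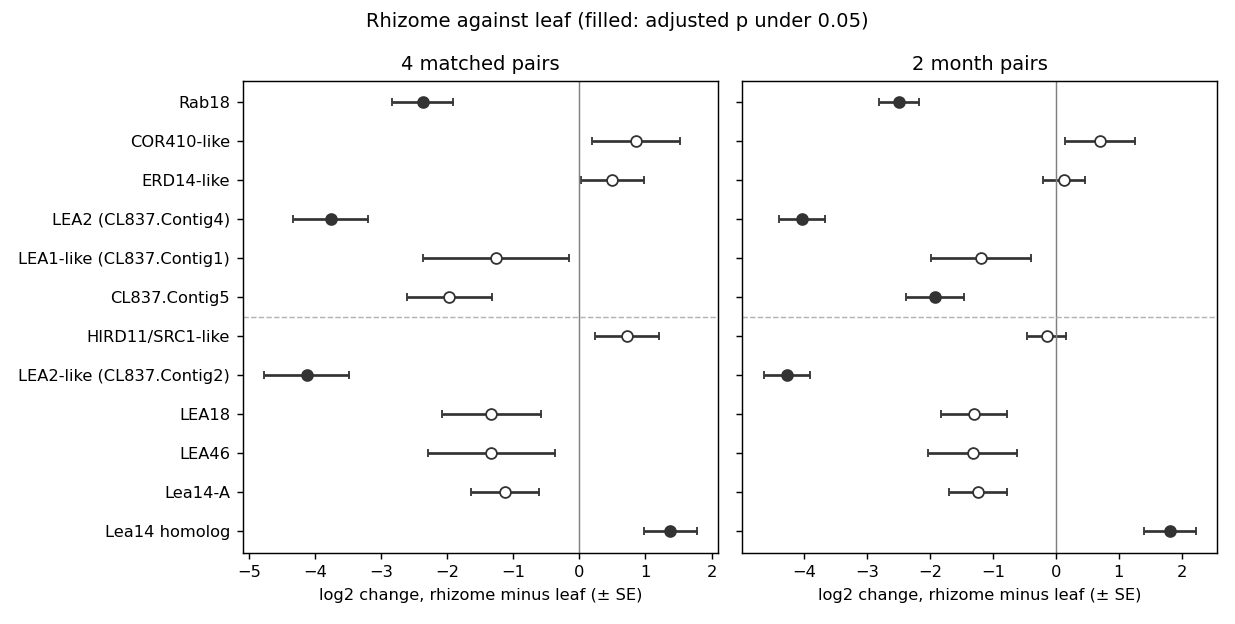
Log2 difference of rhizome minus leaf with its standard error for the 6 features (above the dashed line) and 6 other dehydrin and LEA features (below it), over 4 matched pairs (left) and over the 2 month pairs (right). Filled points passed at an adjusted p under 0.05. Rab18 and both LEA2 features are filled left of 0 in both panels, and Contig5 is filled left of 0 in the right panel alone. The Lea14 homolog is filled right of 0 in both panels, and ERD14-like and COR410-like are open and lie near or right of 0.

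The effect of cutting was read over 4 pairs that share tissue and time. None of the 6 features passed, where 1 of 11682 features did (0.00856%) and 967 had an unadjusted p under 0.05. All 6 estimates were above 0, although that of Contig4 was at -0.067 on log2 FPKM with 1 added and that of COR410-like at -0.35 without the leaf month pair. Rab18 stood at 1.86 ± 1.04 (edgeR adjusted p = 0.721), ERD14-like at 1.05 ± 0.50 (0.607), COR410-like at 0.70 ± 0.73 (0.884) and Contig4 at 0.42 ± 0.62 (0.939). Contig5 stood at 4.73 ± 0.79 (edgeR adjusted p = 0.0719). Contig1 held 1 count over all uncut libraries and reached the count filter through the cut ones, so its fitted value is not given. Contig5 and Contig1 were at 0 in every 4-day library, so 2 of the 4 pairs hold no information on them. With no count filter both passed, among 113 features, and nothing is read from that. With DESeq2's Wald test 70 features passed and none of the 6 was among them, although Contig1 had no adjusted p there.

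For Rab18 the estimated effect of cutting differed between the time points, in libraries that also served to choose the features. In leaf at 4 days the cut library was at 0.374 times the uncut one (0.145 to 0.866), from 8 and 23 counts. In leaf at a month it was at 11.2 times (10.6 to 11.8), and in rhizome at a month at 9.87 times (7.85 to 12.6). Rhizome at 4 days held 1 and 2 counts, too few for a ratio.

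The difference between the cutting effects at a month and at 4 days was 4.87 ± 1.02 on the log2 scale for Rab18 (edgeR adjusted p = 0.000761). It was the sole call among the 6, where 1.96% of features passed, 1.02% as higher. The features were chosen by month values and perhaps by cutting at a month, so this p-value is no independent support. The 4-day side rests on 34 counts in all, and the call ended without the leaf 4-day pair (0.223), the leaf month pair (0.416) or the rhizome month pair (0.198), without the block for pairs (0.201) and on log2 FPKM (0.643 with 1 added), the direction holding in each.

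Contig4 stood at 2.62 ± 1.04 (adjusted p = 0.216), COR410-like at 1.61 ± 1.61 (0.787) and ERD14-like at 0.36 ± 0.99 (0.947). For Contig1 and Contig5 the difference could not be estimated, since every 4-day library was at 0. With the counts of all contigs of a cluster added up, CL837 as a whole passed, at 3.09 ± 0.87 (0.0255), where 200 of 9858 did. That sum includes Contig2, which is not among the 6 and did not pass alone (edgeR adjusted p = 0.295). It also uses the month libraries that served to choose the features, so it is no independent support.

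A fit of the 4 month libraries alone, with tissue as covariate, was added after these values had been seen. Cut explants had more Rab18 by 3.36 ± 0.33 on the log2 scale (edgeR adjusted p = 0.000319) and more Contig5 by 4.77 ± 0.50 (0.000374). Contig1 passed too, but it held 1 count in both uncut libraries together and reached the count filter through the cut ones, so its fitted value is not given. Of 9079 features, 6 passed (0.0661%), all of them higher in cut explants, and Rab18, Contig5 and Contig1 were among these. Beside them were a lipid transfer protein (Unigene299), a feature described as the algal glycoprotein gp1 (Unigene6546) and an organelle feature (CL299.Contig3), named here after their values were seen. Since the choice of features may have rested in part on these libraries, and 1 residual degree of freedom remains, the p-values are no independent support.

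The other features of the group stood at smaller values in that fit: Contig4 at 1.27 ± 0.33 (adjusted p = 0.206), ERD14-like at 1.16 ± 0.34 (0.300) and COR410-like at 0.95 ± 0.56 (0.799). Pair by pair, cut leaf over uncut leaf at a month was 29.5 for Contig5 (21.4 to 41.7), 4.31 for COR410-like (3.65 to 5.10), 2.79 for ERD14-like (2.56 to 3.05) and 2.64 for Contig4 (2.51 to 2.79). Contig1 stood at 145, with an interval of 24.8 to 5839 since the uncut library held 1 count.

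Rhizome gave 26.5 for Contig5 (8.63 to 132), 2.29 for Contig4 (1.61 to 3.30), 1.89 for ERD14-like (1.65 to 2.16) and at least 5.48 for Contig1. COR410-like, at 0.906 (0.731 to 1.12), was the exception, with no difference beyond counting error. By a size rule, a 4-fold ratio with 50 counts or more in the higher of the 2 libraries, 3 of 5 members with enough counts were higher in cut leaf (1.5% of the 5536 features with enough counts) and 2 of 5 in cut rhizome (3.83% of 1696). With nuclear counts as scaling, COR410-like dropped out in leaf, leaving 2 of 5, and rhizome stayed at 2.

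The leaf ratios depend on the scaling. The nuclear share of counts was 12.7% in uncut and 5.74% in cut leaf at a month, and the median FPKM ratio of cut to uncut leaf was 0.388 over 5417 nuclear features. On the FPKM scale as deposited, the leaf ratio was 4.63 for Rab18, 12.9 for Contig5, 1.78 for COR410-like, 1.15 for ERD14-like and 1.10 for Contig4, all above that median. In rhizome, with a median of 0.720, it was 7.53 for Rab18, 21.5 for Contig5, 1.76 for Contig4, 1.44 for ERD14-like and 0.685 for COR410-like.

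**Figure D4:**
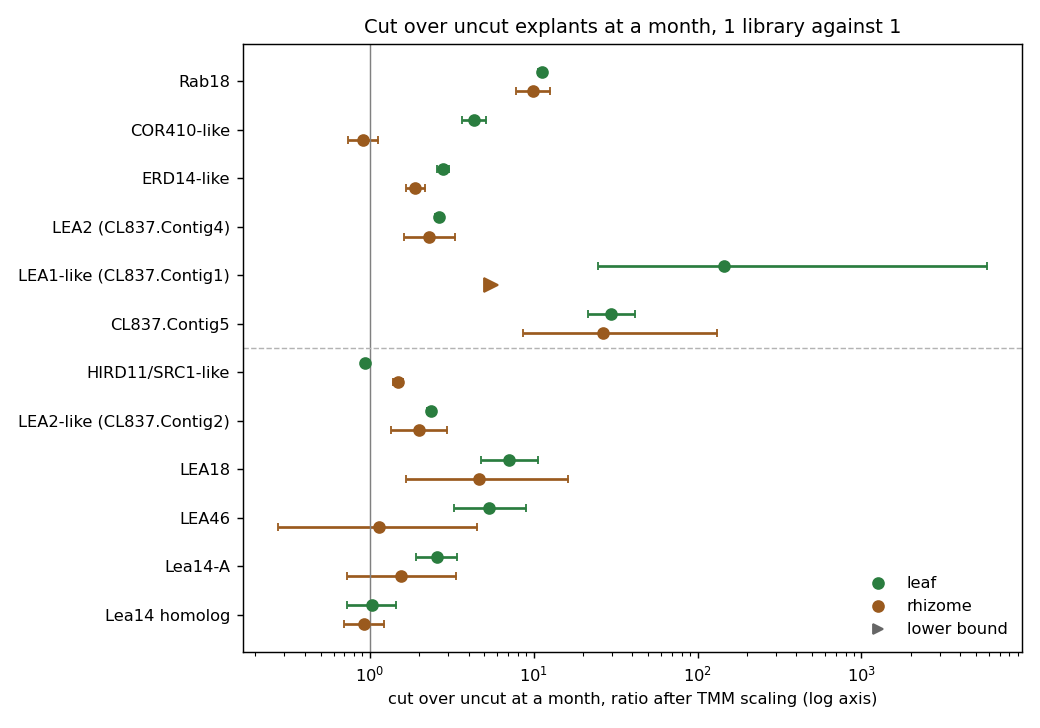
Ratio of cut to uncut explants at a month after TMM scaling (log axis), in leaf (green) and rhizome (brown), with 95% intervals for counting error, for the 6 features (above the dashed line) and 6 other dehydrin and LEA features (below it). An arrowhead is a lower bound against 3 counts, and the line marks a ratio of 1. Rab18 and Contig5 in both tissues and Contig1 in leaf lie farthest right, and COR410-like in rhizome and the Lea14 homolog lie at the line. The lower bound of Contig1 in rhizome lies left of LEA18 in leaf.

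A further 11 features were described as dehydrins or LEA proteins, of which 10 were tested. The most abundant was a feature described as SRC1-like in Nr and as dehydrin HIRD11, a histidine-rich dehydrin of Arabidopsis, in SwissProt (CL354.Contig2). It had 238, 60, 147 and 135 counts at 4 days in uncut leaf, cut leaf, uncut rhizome and cut rhizome. At a month it had 9409, 2981, 1766 and 1915. Its level of 1230 FPKM in uncut leaf at a month was above that of any of the 6 features there. Unlike them, it was well expressed at 4 days, with ranks 193, 834, 22 and 202 in the same order. The rank of 22 is from uncut rhizome, the shallowest library.

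The cut over uncut ratio of HIRD11 at 4 days was 0.271 in leaf (0.201 to 0.361) and 0.132 in rhizome (0.104 to 0.168), with intervals for counting error only. The rhizome value rests on the scaling of the shallowest library, since the counts were 135 in cut and 147 in uncut explants. It was 0.108 with nuclear counts as scaling. On the FPKM scale as deposited it was 0.571, where the median over 2367 nuclear features was 7.95. At a month it was 0.937 in leaf (0.899 to 0.977) and 1.49 in rhizome (1.39 to 1.59). Its difference between the cutting effects at the time points was 2.64 ± 0.79 (edgeR adjusted p = 0.0459). That call was lost when either month pair was left out, without the block for pairs (0.422), with nuclear features only (0.0847), with no count filter (0.180) and on log2 FPKM (0.871 with 1 added), the direction holding in each. Over tissue it stood at 0.72 ± 0.48 (adjusted p = 0.396).

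Contig2 of CL837 followed Contig4. It had 3195, 2558, 47 and 68 counts at a month, 19 counts in all at 4 days, and fell by 4.13 ± 0.64 in rhizome against leaf (edgeR adjusted p = 0.000994). The Lea14 homolog Unigene9163, of the atypical LEA proteins related to Lea14 of cotton, was higher in rhizome by 1.37 ± 0.40 (0.0454). It had 110, 133, 27 and 278 counts at 4 days and 137, 48, 134 and 90 at a month. Summed over libraries and scaled, its month level was 0.676 times the 4-day level (0.593 to 0.770, counting error only). The fitted log2 difference for time was -0.34 ± 0.45. The tissue call of the Lea14 homolog ended without any 1 of the 4 pairs (adjusted p from 0.0519 to 0.196) and on log2 FPKM, where it stood at 0.16 with 1 added. It was also lost without the block for pairs (0.0628), with nuclear features only (0.0561) and with no count filter (0.0806), the direction holding in each. That of Contig2 held under every alternative run in which it had a value. These were the 2 calls for tissue among the 10, 1 in each direction. Of all features, 2.07% passed as higher in rhizome and 6.93% as lower. None of the 10 passed for cutting, where 1 of 11682 features did.

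LEA18 (CL253.Contig1) had no count at 4 days and 37, 88, 5 and 17 at a month, with cut over uncut ratios of 7.03 in leaf (4.74 to 10.6) and 4.66 in rhizome (1.65 to 16.2). Its difference in the month fit, 2.55 ± 0.52, missed the threshold (edgeR adjusted p = 0.0838). Lea14-A (CL1610.Contig1), at 1.02 ± 0.45 (0.614) there, and features matching LEA proteins At1g64065 (Unigene10701, Unigene8401) and At5g17165 (Unigene8370) had at most 153 counts in a library. For time, 6 of the 10 passed as higher at a month and none as lower, against 7.81% and 0.95% of all features. LEA18 and LEA46 (Unigene642), with no count at 4 days, and Unigene10701, with 2, reached the count filter through the month libraries. Nothing is read from the results of these features for time. The median log2 difference of the 10 was 3.60, with the 2 features empty at 4 days at their fitted values or at their lower bounds, and that of all features was 0.02.

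Genes of abscisic acid synthesis and signalling, which act upstream of many LEA genes, were listed from the descriptions. Of 35, 20 were tested. For time 11 passed as higher at a month and none as lower, against 7.81% and 0.95% of all features tested. For tissue 5 passed as lower in rhizome, against 6.93%, and none as higher. None passed for cutting, where 1 of 11682 features did. The kinase SAPK2-like (Unigene1668), of the family that carries the abscisic acid signal, had 29, 12, 1 and 5 counts at 4 days and 1085, 470, 15 and 20 at a month, and fell by 3.23 ± 0.62 in rhizome against leaf (edgeR adjusted p = 0.00423). The kinases SAPK3 (CL263.Contig1) and SAPK10 (Unigene6846) did not pass for tissue over the 4 pairs, at -0.78 ± 0.45 and -0.05 ± 0.44. In the month libraries alone SAPK3 passed as lower in rhizome, at -1.29 ± 0.42 (edgeR adjusted p = 0.0418). SAPK10 did not, at -0.47 ± 0.46 (0.511). Of 19 listed features tested there, 8 passed as lower in rhizome, against 11.5% of all features, and none as higher. The list's median log2 differences were -0.91 for tissue, 0.06 for cutting and 2.07 for time, where those of all features were -0.14, 0.09 and 0.02.

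Drought and cold transcription factors of the DREB/CBF family, which bind promoters of drought and cold responsive genes in Arabidopsis, had 3 of 7 features tested. DREB1G (Unigene1271) and a CBF-like factor (Unigene1270) had no count at 4 days and so reached the count filter through the month libraries, and nothing is read from their calls for time. At a month DREB1G had 93, 49, 75 and 187 counts and the CBF-like factor 75, 101, 71 and 77. Over all 4 pairs neither passed for tissue, at 2.07 ± 0.62 (edgeR adjusted p = 0.0558) and 1.04 ± 0.63 (0.348), or for cutting, at 1.19 ± 0.68 (0.708) and 1.26 ± 0.71 (0.702). In the month libraries alone DREB1G passed as higher in rhizome, by 2.19 ± 0.45 (edgeR adjusted p = 0.00365), a direction opposite to that of Rab18 and Contig4, and the CBF-like factor stood at 1.14 ± 0.45 (0.0945).

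Other genes of drought and cold protection had 26 of 29 features tested. Of these 10 passed as higher and 1 as lower at a month, against 7.81% and 0.95% of all features tested, and 6 passed as lower in rhizome, against 6.93%. Galactinol synthase 2-like (Unigene10239), of the pathway to raffinose sugars, had 81, 31, 0 and 1 counts at 4 days and 1866, 1833, 122 and 438 at a month, and fell by 2.54 ± 0.59 in rhizome (edgeR adjusted p = 0.0154, or 0.0876 without the uncut 4-day pair and 0.0891 without the block for pairs). RD22-like (Unigene7542), named for its response to dehydration, fell by 6.09 ± 0.58 in rhizome (0.000113) and was at 1.07 ± 0.69 for time. None of the 26 passed for cutting, where 1 of 11682 features did.

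The few features listed as markers of seed and embryo tissue, where LEA proteins are abundant, were low throughout. None was described as an oleosin, globulin, ABI3, LEC1 or FUS3, so nothing is read on those. The 4 listed features, 3 of them 1-Cys peroxiredoxins, summed to 23.5 to 73.3 CPM of nuclear counts. The sums were 41.5, 23.5, 28.3 and 63.4 at a month, within the range of 41.3 to 73.3 at 4 days or below it. A putative peroxygenase (Unigene9972) had 2, 0, 2 and 7 counts at 4 days and 20, 6, 3 and 7 at a month. These are in the order uncut leaf, cut leaf, uncut rhizome and cut rhizome. The 2 tested had no call for tissue, cutting or time. Of 17 storage protein and lectin features, 13 were tested, 3 passed as higher in rhizome, against 2.07% of all features tested, and 1 passed in each direction for time.

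Features with a pattern like the mean of the 6 over the 8 libraries were ranked by Pearson's r of log2 CPM among 8850 described nuclear features. The pattern has 4 low and 4 high libraries, so r is mainly a measure of the step between time points, and it carries no test. LEA18 ranked first (r = 0.997). It was followed by a pherophorin-like feature (CL1520.Contig1, 0.988), inositol oxygenase (Unigene4144, 0.985), the transcription factor ERF061 (Unigene9069, 0.981) and LEA46 (Unigene642, 0.980). An arabinogalactan protein (CL2095.Contig1, 0.979), LTI65-like (CL2115.Contig2, 0.978) and a B2-like protein (Unigene1722, 0.978) completed the 8 named, and 2.31% of features had r above 0.9.

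LTI65, known in Arabidopsis as a desiccation-responsive protein also called RD29B, was one of them. It held 13.7 CPM after scaling in uncut leaf, 54.0 in cut leaf, 2.34 in uncut rhizome and 18.6 in cut rhizome, against at most 0.470 at 4 days.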

How the data were processed

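RNA-seq libraries of leaf and rhizome were analysed from the deposited tables. Per the submitters' processing notes, the authors used Bowtie2 and RSEM, with no version given; the tables hold expected counts and FPKM per the file headers. The labels' protocols name oligo dT selection or ribosomal depletion without saying which library had which. Deposited expected counts were rounded to whole numbers. Features that a table lacks were set to 0. Deposited FPKM values were used for levels within a library and, as log2(FPKM + 1) or log2(FPKM + 0.1), in limma as alternatives. Features were classed as ribosomal, organelle or nuclear from their annotation; 1 abundant feature of uncertain class was kept out of nuclear totals.

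Features were tested together in R 4.3.3 with edgeR 4.0.16 (count filter by design, TMM, robust quasi-likelihood F tests), with Benjamini-Hochberg adjustment and a threshold of 0.05. Tissue, cutting and time were each fitted over 4 matched pairs blocked by pair, and cutting by time with the same block, leaving 3 and 2 residual degrees of freedom. Month libraries alone left 1. A standard error is the log2 difference divided by the root of F. No combination has a replicate, and the labels name no separate cultures, so p-values reflect the spread of these 8 libraries alone. Alternatives used DESeq2 1.42.0 and limma 3.58.1. Intervals of ratios are exact binomial 95% intervals on the counts, and empty groups were set to a floor of 3 counts. The fits were tested on simulated counts.

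The members and lists were chosen with earlier results of these data known, and list patterns were corrected after descriptions and counts had been seen. Named features were all 6 members; other LEA features of at least 10 CPM of nuclear counts, up to 8 by mean, and those past the threshold for tissue or cutting; up to 3 per other list by smallest p and 3 by mean; and the 8 described features most like the members' mean pattern (log2 CPM, prior count 2). Of these, not all are named in the text. No sequence is printed.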

Additional observations from a re-analysis of the deposited data

Results flagged for a closer look

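The effect of cutting on Rab18 (CL1434.Contig2) differed between time points: the difference of the log2 cutting effects, a month minus 4 days, was 4.87 ± 1.02 (edgeR adjusted p = 0.000761). The dehydrin HIRD11 (CL354.Contig2) was flagged in the same way, at 2.64 ± 0.79 (0.0459). Both calls ended without the leaf month pair or the rhizome month pair. Both were marked because the difference itself was tested. Rab18 was among the features chosen by values of these libraries, so its p-value is no independent support. Rab18 holds 34 counts over the 4-day libraries and HIRD11 580. The spread of single samples within a group could not be looked at, since each group is 1 library.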

How the results depend on the processing

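Counts of members called and single-pair counts were taken as moved when they lay beyond 1.5 times the value reported. The members' median for time was taken as moved when it changed by more than the members' median standard error. By these rules 55 values over all alternatives stayed and 15 moved. For tissue, 2 members passed as reported and 1 without the block for pairs, and leaving out 1 pair gave 1 to 2. For cutting, 0 passed and 2 did with no count filter. For cutting by time, 1 passed, 2 clusters did with contigs summed, 0 on log2 FPKM with 1 or 0.1 added and 0 without the block for pairs, and leaving out 1 pair gave 0 to 1. The median log2 difference of the 6 members for time, 7.53, ran from 6.51 to 7.98 when 1 pair was left out. With a lower size rule of 20 counts and 2-fold, 2 members were lower in cut leaf at 4 days (0 as reported), 6 were higher in cut leaf at a month (3) and 1 was higher in uncut rhizome at a month than in uncut leaf (0).

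No member value that passed its test changed direction. Signs turned for members that did not pass. For tissue, COR410-like was at -0.30 and -0.21 and ERD14-like at -0.51 and -0.45 on log2 FPKM with 1 and 0.1 added, and Contig1 at 0.19 by DESeq2. In the month libraries COR410-like was at -0.68 and -0.71 and ERD14-like at -1.27 and -1.29 on those scales, and ERD14-like at -0.033 with no count filter. For cutting, Contig4 was at -0.067 and -0.25 on log2 FPKM, and leaving out 1 pair gave it -0.25 (leaf month) to 0.97, with -0.06 for the rhizome month pair, and COR410-like -0.35 (leaf month) to 1.32. For cutting by time, ERD14-like was at -0.44 and -1.06 and COR410-like at -0.16 on log2 FPKM, and leaving out 1 pair gave COR410-like -3.86 (leaf 4-day) to 4.88 and ERD14-like -0.69 (rhizome 4-day) to 1.34. The cause was not tested.

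Over all features, the number past the threshold moved by more than 1.5 times: for tissue 1051, with 444 to 2582 over the alternatives; for time 1023, with 589 (without the uncut leaf pair) and 612 (without the cut rhizome pair) to 1385; for cutting 1, with 0 to 274; for cutting by time 229, with 0 to 415; for tissue at a month 1756, with 810 to 3989; for cutting at a month 6, with 5 to 138. On log2 FPKM with 1 added, tissue gave 79 higher and 2503 lower, where edgeR gave 242 and 809. In the cutting fit at a month, Rab18 passed under all 7 alternatives (as its cluster with contigs summed), Contig5 under 6 and Contig1 under 5; summed contigs give the last 2 no value of their own, and DESeq2 gave Contig1 no adjusted p. A fit that leaves out a month pair there has no residual degrees of freedom. The labels give no replicate numbers, so the block is the matched pair of libraries that share the other conditions. Depth limits the 4-day side: 44.0 CPM of nuclear counts is the floor in uncut rhizome at 4 days.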
